A study of Mus musculus with 2 samples.

Results

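The 89 genes described here carry symbols of cytosolic ribosomal proteins, 53 of the large and 36 of the small ribosomal subunit, out of 55488 gene rows counted. They were taken by symbol alone (Rpl or Rps with a number, Rplp0 to Rplp2 and Rpsa), without the rows marked as pseudogenes by "-ps". 83 are annotated as protein coding, and the other 6 (Rpl32l, Rpl6l, Rps12l1, Rps3a2, Rps3a3 and Rps4l) as pseudogene types. 82 members had over 1000 unique molecular identifiers (UMIs, each standing for 1 captured mRNA molecule) in both libraries, while Rpl10l and Rps12l1 had 0 in both.

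Droplet-based 3′ single-cell RNA-seq was done on newborn (P0) mouse kidney, with 1 library labelled Flcn KO and 1 labelled Flcn WT. Flcn encodes folliculin, a regulator of mTORC1 signalling and of the transcription factor TFEB, and the study asked what its loss changes in the nephron lineage. Per the series' design text, the KO kidneys were Six2Cre; Flcn flox/flox, and the other group was Six2Cre; Flcn flox/+, so both groups carry the Cre and the library labelled WT is heterozygous by that text. Six2Cre is active in nephron progenitors, so their progeny (podocytes, proximal tubule, loop of Henle, distal tubule) are targeted, and stroma, vessels, immune cells and the ureteric bud are not. The tissue label reads as embryonic although the titles give P0, and the number of animals per library is not given in the sources used here.

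With 1 library per genotype no test between genotypes was possible. Intervals cover counting error only, with each UMI taken as independent, and not the spread between cells, animals or preparations. Genotype and library cannot be told apart in any difference given below. After filtering, 4798 KO cells (median 18486 UMIs) and 4000 WT cells (median 20884 UMIs) were clustered without the ribosomal protein genes. The clusters were named from marker lists, which gave 11 classes of marker-like cells, and "loop of Henle cells" stands below for loop-of-Henle-like cells and so on. 664 KO and 607 WT cells stayed unnamed, and the libraries shared 5 barcodes. Flcn itself differed in both directions within the Six2 lineage, with a ratio of 1.72 (1.32 to 2.24) in podocytes, 0.603 (0.518 to 0.70) in proximal tubule cells and 1.33 (0.962 to 1.85) in loop of Henle cells, where it gave 107 UMIs in KO and 61 in WT. The interval included 1 in loop of Henle cells and in the other 3 classes of the lineage. These values do not check the deletion, since 3′ counting does not show which exons the mRNA holds.

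Ribosomal proteins join ribosomal RNA to form the 2 subunits of the ribosome, the small one reading the mRNA and the large one joining amino acids. Their genes are among the most highly expressed of any cell and are usually transcribed together. Their mRNAs typically begin with a C followed by a run of pyrimidines, the 5′ terminal oligopyrimidine (TOP) motif, through which mTORC1 and Larp1 control translation. Rapidly growing and progenitor cells are known for high ribosome production, which falls as cells differentiate.

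Of the 64 members with a RefSeq promoter (GRCm38.p6), 22 (34.4%) had a C within 2 bases of the annotated start followed by at least 4 pyrimidines on the gene's strand, against 10.6% of 27025 genes of the table. Annotated starts can lie some bases from the true start, so a missing match says only that these letters are not at this position. The following 30-base windows, 20 bases before and 10 from the annotated start, are shown because Rps6, the small subunit protein phosphorylated downstream of mTORC1, is a standard TOP gene, and because the pair Rps27 and Rps27l carries a result below. Capitals mark the C and the pyrimidines after it. Windows of further members were looked at, and the ones shown are those with a match. The windows of Rpsa, Rplp0, Rpl5, Rpl11, Rpl10, Rpl22, Rpl39 and Rps4x had none. A second annotated start of Rps27l (window chr9:66946393-66946422) had none either.
Rps6 (chr4:86857358-86857387, minus strand): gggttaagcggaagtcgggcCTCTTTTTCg
Rps27 (chr3:90213639-90213668, minus strand): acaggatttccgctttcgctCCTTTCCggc
Rps27l (chr9:66946066-66946095, plus strand): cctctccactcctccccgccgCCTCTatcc
The coding sequences of that pair (GENCODE M21, GRCm38) are both 255 bases long with the stop codon and 76.1% identical, and the 61 bases at which they differ are in capitals.
Rps27 (chromosome 3, minus strand): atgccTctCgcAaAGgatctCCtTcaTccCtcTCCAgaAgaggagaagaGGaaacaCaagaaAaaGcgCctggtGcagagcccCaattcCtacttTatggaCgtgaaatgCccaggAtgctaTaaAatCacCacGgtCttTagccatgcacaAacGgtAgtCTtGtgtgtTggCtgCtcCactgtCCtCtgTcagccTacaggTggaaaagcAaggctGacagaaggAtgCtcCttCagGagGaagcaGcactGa
Rps27l (chromosome 9, plus strand): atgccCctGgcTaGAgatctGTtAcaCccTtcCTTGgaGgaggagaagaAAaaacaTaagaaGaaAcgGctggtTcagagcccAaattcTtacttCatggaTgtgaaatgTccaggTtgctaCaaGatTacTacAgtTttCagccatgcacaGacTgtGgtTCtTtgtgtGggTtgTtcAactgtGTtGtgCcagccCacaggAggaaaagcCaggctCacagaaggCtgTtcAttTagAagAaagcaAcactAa
No "-ps" row carries the name of Rps27l, and the 1 row named for Rps27 holds 0.00104% of the UMIs of gene and copy.

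Of the 11 classes, nephron progenitors had the largest share of nuclear-encoded UMIs from ribosomal protein genes in both libraries. These are the Six2-expressing stem cells of the nephron, and their share was 16.9% in KO and 17.1% in WT. Early nephron cells followed with 16.1% in KO and 16.0% in WT. The lowest share in WT was that of podocytes, the filtration barrier cells, at 8.42%, and in KO that of distal tubule cells at 8.81%, next to loop of Henle cells at 8.83%. Loop of Henle cells ranked 8 of the 11 classes in WT and 10 in KO, and distal tubule cells 6 in WT and 11 in KO.

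**Figure D1:**
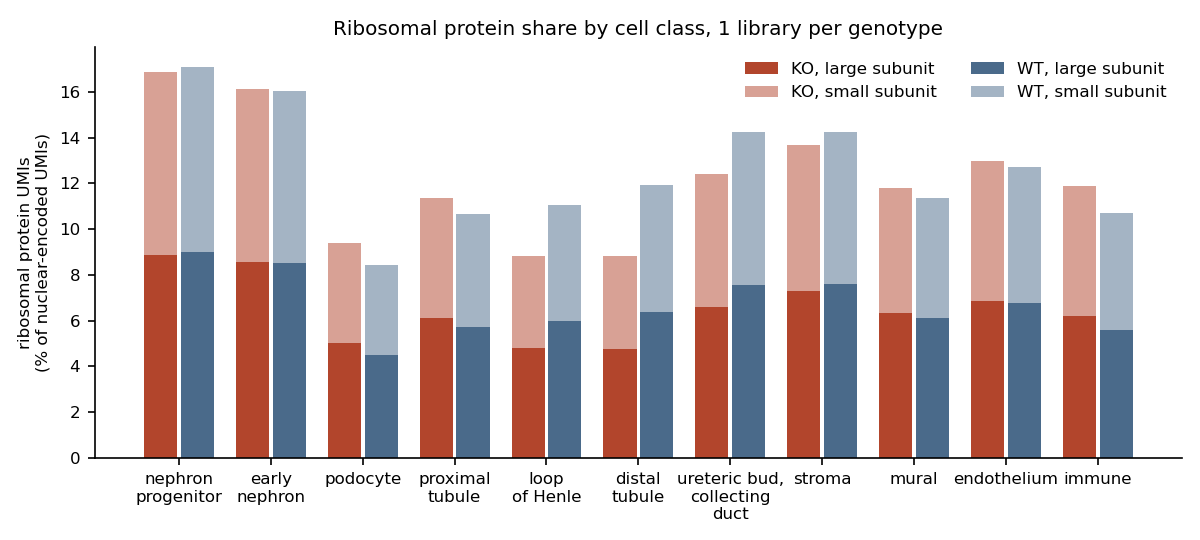
Ribosomal protein UMIs as a percentage of nuclear-encoded UMIs (y axis) in each cell class (x axis), KO left of WT, with large subunit genes below and small subunit genes above. Each bar is a sum over the cells of 1 library, so there is no replicate error; the pair stands apart most in loop of Henle cells (8.83% in KO, 11.1% in WT) and distal tubule cells (8.81% in KO, 11.9% in WT).

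Large and small subunit genes kept nearly the same proportion to each other everywhere. The large subunit gave 1.09 to 1.18 UMIs per small subunit UMI over all classes and both libraries. In loop of Henle cells this proportion was 1.18 in both KO and WT.

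The KO library had a lower ribosomal protein share in loop of Henle cells, which reabsorb salt in the medulla and are marked by Slc12a1 and Umod. The share was 8.83% in KO (204 cells) and 11.1% in WT (158 cells), a ratio of 0.798 (0.796 to 0.801). The large subunit ratio was 0.80 and the small subunit ratio 0.796. Per cell this was 4968 ribosomal protein UMIs in KO against 6091 in WT, while the mean of all nuclear-encoded UMIs per cell was 1.02 times as high in KO. The difference was spread over nearly all members. Of 83 members with at least 50 UMIs over both libraries, 81 were below a ratio of 1 and 55 were at least 1.2-fold lower in KO, where 30% of all genes tested were. No member was at least 1.2-fold higher, where 24.5% of all genes were. The median log2 ratio was -0.34 for the members and -0.03 for all genes.

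The lowest member in loop of Henle cells was Rps27, a small subunit protein with a zinc-binding site, at 800.2 CPM (counts per 1000000 nuclear-encoded UMIs) in KO and 1195 CPM in WT, a ratio of 0.670 (0.651 to 0.689). Rpl36a gave 555 CPM in KO and 808 CPM in WT, a ratio of 0.688 (0.664 to 0.711). Rpl37 had a ratio of 0.705 (0.687 to 0.724) and Rps15a of 0.714 (0.696 to 0.732). Rpl27a, Rps19, Rps12 and Rpl37a, the other members of the lowest 8 when ranked by the interval bound nearest to 1, had ratios of 0.706 to 0.726. These come from both subunits, with 4 of each. Rps6 was at 453 CPM in KO and 543 CPM in WT, a ratio of 0.834 (0.802 to 0.868), although 4.09% of the UMIs of Rps6 and its "-ps" rows lie in those rows. Rpl5 and Rpl11, which with 5S RNA can bind Mdm2 when ribosome assembly is disturbed, had ratios of 0.874 (0.843 to 0.906) and 0.810 (0.791 to 0.829). Rpsa, the laminin receptor precursor, had a ratio of 0.764, and the stalk proteins Rplp0, Rplp1 and Rplp2, which recruit translation factors, had 0.822, 0.854 and 0.867. Rpl3, Rpl7, Rpl10, Rpl22, Rpl39 and Rps4x lay between 0.757 and 0.836. Above 1 were only Rps27l at 1.11 (1.06 to 1.16) and Rpl7l1 at 1.003 (0.896 to 1.12).

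**Figure D2:**
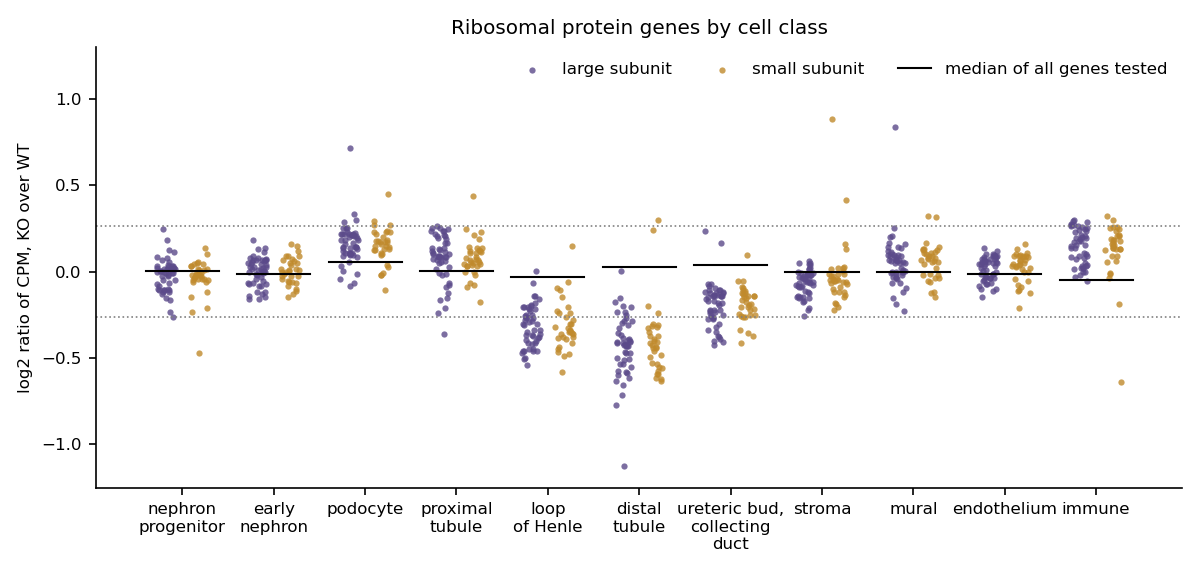
Log2 ratio of CPM, KO over WT (y axis), of each member with at least 50 UMIs in each cell class (x axis), large subunit left and small subunit right; the black line is the median of all genes tested and dotted lines mark a 1.2-fold difference. Of the members, 55 of 83 lie on or below the lower dotted line in loop of Henle cells and 70 of 82 in distal tubule cells.

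Distal tubule cells showed the same direction. The share was 8.81% in KO (61 cells) and 11.9% in WT (100 cells), a ratio of 0.738 (0.734 to 0.742). Of 82 members tested, 70 were at least 1.2-fold lower in KO, against 23.2% of all genes, and 1, the pseudogene-type row Rps4l at 1.23 (1.05 to 1.45), was at least 1.2-fold higher, against 27.3% of all genes. Ranked by interval bound, the lowest were Rpl22l1 at 0.587 (0.547 to 0.629), Rpl37a at 0.610 and Rpl37 at 0.635, and the highest beside Rps4l was Rps27l at 1.18 (1.08 to 1.29). The pseudogene-type row Rpl6l, with 18 UMIs in KO and 59 in WT, had the lowest point value at 0.449 (0.249 to 0.773), and was named after its value was seen. The cells of this class differed in depth and markers between the libraries: the median cell had 39833 UMIs in KO and 15394 in WT, and all 9 distal tubule markers were lower in KO, with a summed level of 1594 CPM in KO and 4471 CPM in WT. Pvalb was at 0 in KO. Early nephron markers summed to 523 CPM in KO and 650.0 CPM in WT, none of the 9 being higher in KO, with Fgf8 at 0 in KO. Markers of other cell types moved as well. The 13 ureteric bud and collecting duct markers, which share Calb1 with the distal list, summed to 1155 CPM in KO and 3094 CPM in WT, 3 of them higher in KO, and the 8 intercalated cell markers to 671 CPM in KO and 463 CPM in WT, 2 of them higher in KO. The 9 podocyte markers summed to 1575 CPM in KO and 243 CPM in WT, but 1 of them, Magi2, gave 1552 CPM in KO and 187 CPM in WT of this, and the other 8 were lower in KO, with Nphs1 at 0 in KO and 1.81 CPM in WT. The 9 endothelial markers summed to 66.9 CPM in KO and 26.8 CPM in WT, 8 of them higher in KO. The part of these in the result was not tested.

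Ureteric bud and collecting duct cells, which are outside the Six2 lineage, also had a lower share in KO, 12.4% against 14.2% in WT, a ratio of 0.872 (0.870 to 0.875). 18 of 83 members were at least 1.2-fold lower in KO, against 11.1% of all genes. This count moved with the setting: it was 28 with TMM scaling, 9 as a mean over cells, 2 in cells of 10000 to 40000 UMIs, 2 in cells up to 60000 UMIs, and 1 of the 23 members longer than 600 coding bases. The lowest were Rps28 at 0.751, Rpl37a at 0.754 and Rpl37 at 0.757, all short genes.

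The loop of Henle and distal differences were found in cells with a UMI of Mki67 or Top2a, which are made in dividing cells. This split was chosen after the data were seen. Among such loop of Henle cells (112 in KO, 84 in WT) the share was 8.99% in KO and 12.2% in WT, a ratio of 0.734 (0.732 to 0.737), and 74 of 83 members were at least 1.2-fold lower in KO, against 27.5% of all genes. Among loop of Henle cells without such a UMI (92 in KO, 74 in WT) the share was 8.46% in KO and 8.32% in WT, a ratio of 1.02 (1.01 to 1.02). There 2 of 82 members, Rps27 and Rpl22l1, were at least 1.2-fold lower in KO, against 31.6% of all genes. The lower pooled share was thus not seen in the cells without a Mki67 or Top2a UMI.

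The same split divided the distal tubule cells. With such a UMI (16 cells in KO, 26 in WT) the ratio was 0.661 (0.657 to 0.666) and 77 of 81 members were at least 1.2-fold lower in KO, against 28.6% of all genes. Without it (45 in KO, 74 in WT) the ratio was 0.982 (0.975 to 0.990), and 7 of 81 members were at least 1.2-fold lower, against 17.5% of all genes. These 7 were Rpl22l1, Rpl37a, Rpl38, Rps29, Rps27, Rpl37 and Rpl35. The cells set against each other here are unlike in other ways. Those without such a UMI had a median of 28558 UMIs in KO and 7032 in WT, and distal tubule markers at 1594 CPM in KO and 8404 CPM in WT. Those with one had a median of 58664 UMIs in KO and 117440 in WT, and distal tubule markers at 1594 CPM in KO and 2591 CPM in WT. Over the whole class Mki67 gave 77 UMIs in KO and 300 in WT, a ratio of 0.378 (0.290 to 0.487), and Top2a 32 in KO and 344 in WT, a ratio of 0.137. Their part in the result was not tested.

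In ureteric bud and collecting duct cells both parts were lower in KO, with ratios of 0.878 with and 0.888 without a Mki67 or Top2a UMI. In early nephron cells, of which most hold such a UMI, the ratios were 1.01 with and 0.982 without it. In stroma they were 0.925 with and 0.988 without it, and in nephron progenitors 0.960 with and 0.978 without it. Both ratios were above 1 in proximal tubule (1.05 with, 1.08 without), mural (1.03 with, 1.05 without) and endothelial cells (1.02 with, 1.03 without). The same held in immune cells (1.14 with, 1.08 without).

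**Figure D3:**
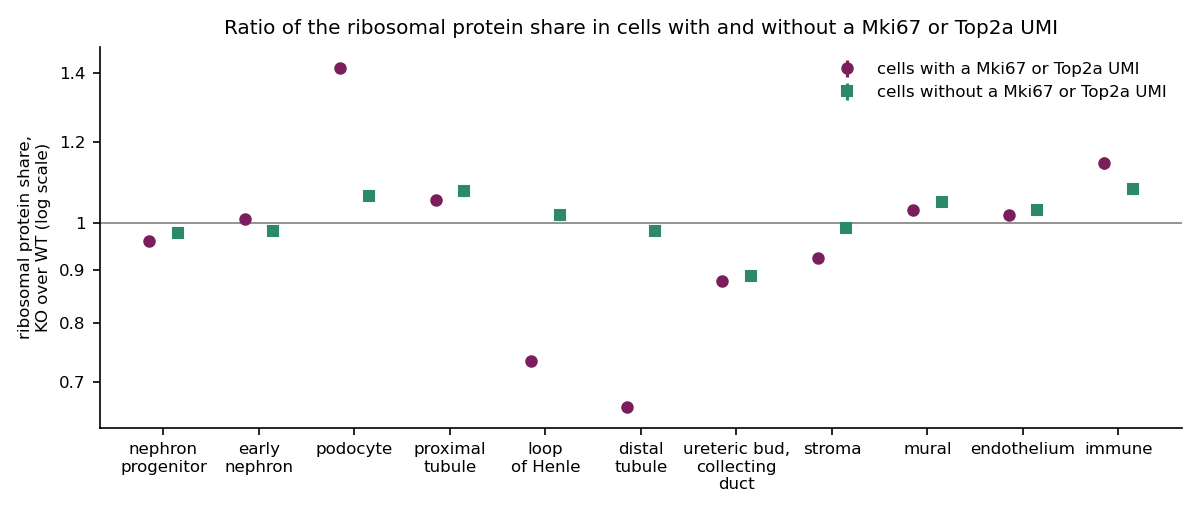
Ribosomal protein share of nuclear-encoded UMIs, KO over WT (y axis, log scale), in cells with (circles, left) and without (squares, right) a Mki67 or Top2a UMI in each cell class (x axis); bars, mostly hidden by the points, are 95% intervals of counting error. The circles of loop of Henle cells (0.734) and distal tubule cells (0.661) lie far below 1 while their squares lie at 1.02 and 0.982.

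Several other measures differed along with this split or over the whole loop of Henle class. Having such a UMI depends on depth: loop of Henle cells with one had a median of 67308 UMIs in KO and 57664 in WT, and those without had 39786 in KO and 32784 in WT. Markers of early nephron cells summed to 476 CPM in KO and 1094 CPM in WT in the loop of Henle cells with such a UMI, and to 357 CPM in KO and 415 CPM in WT in those without. Over the whole loop of Henle class, 8 of the 9 early nephron markers were lower in KO, none was at 0 in either library, and the sum was 439 CPM in KO and 889 CPM in WT, of which Ccnd1, a cell-cycle cyclin that is also on this list, gave most. Progenitor markers summed to 40.5 CPM in KO and 83.4 CPM in WT, 4 of the 8 being higher in KO and Meox1 at 0 in KO. The 9 distal tubule markers summed to 320.0 CPM in KO and 660 CPM in WT, 1 of them higher in KO and Pvalb at 0 in both, and the 8 intercalated cell markers to 1.83 CPM in KO and 26.1 CPM in WT, 1 of them higher in KO. The 9 podocyte markers summed to 1118 CPM in KO and 379 CPM in WT, of which Magi2 gave 1105 CPM in KO and 331.5 CPM in WT, and Nphs1 was at 0.174 CPM in KO and 0.575 CPM in WT. Mki67 was at 75.8 CPM in KO and 120.5 CPM in WT and Top2a at 47.7 CPM in KO and 103 CPM in WT. The 12 markers of the class itself summed to 10880 CPM in KO and 11390 CPM in WT, none of them at 0. Of these, 3 were higher in KO: Umod at 3177 CPM in KO and 933 CPM in WT, Ptger3 and Wnk4. The others were lower in KO, among them Slc12a1 at 4461 CPM in KO and 7332 CPM in WT. Cldn16 was at 39.4 CPM in KO and 96.5 CPM in WT, and Cldn19 at 195 CPM in KO and 307 CPM in WT. The nuclear RNA Malat1 was at 14940 CPM in KO and 22624 CPM in WT, and mitochondrial UMIs were 6.62% in KO and 6.11% in WT. The part of these in the result was not tested.

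The median cell differed somewhat from the sum. The median share per loop of Henle cell was 7.95% in KO and 9.88% in WT. It was 8.19% in KO and 10.5% in WT with a Mki67 or Top2a UMI, and 7.77% in KO and 8.63% in WT without one. The median share per distal tubule cell was 6.65% in KO and 8.54% in WT. With such a UMI it was 7.53% in KO and 12.9% in WT, and without one 6.53% in KO and 7.15% in WT. In distal tubule cells the 26 WT cells with such a UMI held 67.7% of the class's UMIs in WT, against 45.1% for the 16 KO cells in KO. From the lower to the upper quartile, the share per distal tubule cell ran from 4.86 to 11.4% in KO and from 5.11 to 13.6% in WT. The intervals of the ratios leave out this spread between cells. Split by depth, the loop of Henle ratio was 0.799 up to 20000 UMIs, 0.882 above 20000 and up to 40000 and 0.786 over 40000, so it was below 1 in each range. Among cells with a Umod UMI (186 in KO, 128 in WT) it was 0.776, and among the few without (18 in KO, 30 in WT) it was 1.22. The distal tubule ratio was 0.835 up to 20000 UMIs, 0.527 above 20000 and up to 40000, and 0.760 over 40000. Among the few distal tubule cells with a Umod UMI (15 in KO, 13 in WT, holding 31.4% of the class's UMIs in KO and 28.4% in WT) it was 1.02 (1.01 to 1.03), and among those without (46 in KO, 87 in WT) it was 0.643. The lower share in KO was not seen in the distal tubule cells with a Umod UMI, but this split rests on few Umod UMIs. Over the whole distal tubule class Umod gave 18 UMIs in KO and 16 in WT. The split also went with depth. The median cell had 49416 UMIs in KO and 92431 in WT with a Umod UMI, and 37256 in KO and 10697 in WT without. The part of depth in these ratios was not tested.

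Rps27l, which p53 is known to induce, took a larger share of the pair with its paralog Rps27 in KO loop of Henle and distal tubule cells, and in loop of Henle cells this held on both sides of the Mki67 or Top2a split. UMIs are counted once per molecule at the 3′ end, so the share of a pair is not divided by length. Rps27l made up 34.5% of the pair's UMIs in KO loop of Henle cells (33.7 to 35.3%) and 24.1% in WT (23.4 to 24.9%). In distal tubule cells it made up 29.2% in KO and 18.8% in WT. In proximal tubule cells, the other class with a high share, the values were 27.5% in KO and 26.8% in WT. The other classes lay between 12.4 and 21.5%, with the lowest in nephron progenitors at 12.4% in KO and 13.3% in WT.

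In loop of Henle cells with a Mki67 or Top2a UMI the Rps27l share was 33.6% in KO and 23.6% in WT, and in those without it was 36.5% in KO and 25.7% in WT. Rps27l itself was at 433 CPM in KO and 336 CPM in WT in the cells without such a UMI, a ratio of 1.29 (1.18 to 1.4), and Rps27 at 754 CPM in KO and 971 CPM in WT, a ratio of 0.777 (0.736 to 0.821). There the 2 members of the pair differed in opposite directions. In distal tubule cells without such a UMI the share was 28.3% in KO and 24.5% in WT, and Rps27l had a ratio of 0.971 (0.856 to 1.10). In distal tubule cells up to 20000 UMIs the share was 23.7% in KO and 25.4% in WT. Above 20000 and up to 40000 UMIs it was 37.8% in KO and 15.3% in WT, and over 40000 UMIs 28.1% in KO and 18.6% in WT. With a Umod UMI it was 22.2% in KO and 20.3% in WT, and without one 32.6% in KO and 18.3% in WT. With at most 10% mitochondrial UMIs the distal tubule share in KO was 24.2%. After thinning every cell to 3000 UMIs the distal tubule shares were 27.2% in KO and 25.2% in WT, and the loop of Henle shares 36.9% in KO and 28.8% in WT.

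**Figure D4:**
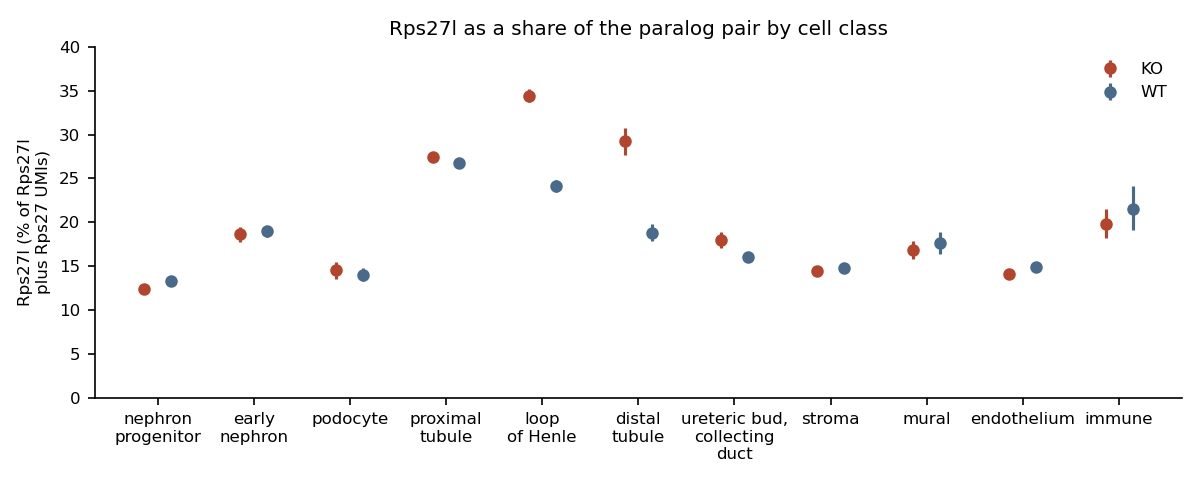
Rps27l as a percentage of Rps27l plus Rps27 UMIs (y axis) in each cell class (x axis), KO left of WT, with 95% Clopper-Pearson intervals of counting error. Loop of Henle cells (34.5% in KO, 24.1% in WT) and distal tubule cells (29.2% in KO, 18.8% in WT) are the classes in which the pair of points lies far apart.

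The other paralog pairs changed less or lay near 0, apart from the pseudogene-type row Rps4l beside Rps4x in some classes. Rps4l made up 5.88% of its pair in KO and 3.38% in WT distal tubule cells. In immune cells it was the other way, with 2.56% in KO and 4.38% in WT. In loop of Henle cells it made up 3.58% in KO and 3.04% in WT. Rpl22l1, the paralog of the RNA-binding protein Rpl22, made up 38.7% of its pair in KO and 40.1% in WT loop of Henle cells, and 36.0% in KO and 41.5% in WT distal tubule cells. Over classes its share ran from 22.5% in immune cells of WT to 44.1% in proximal tubule cells of WT. Rpl7l1, a nucleolar assembly factor rather than a ribosomal subunit protein, made up 7.31% of its pair in KO and 5.61% in WT loop of Henle cells. Rpl3l, the striated muscle paralog, gave 13 UMIs in KO and 5 in WT there. Rpl39l, known from male germ cells, and Rpl10l, the testis paralog, had 0 UMIs in loop of Henle cells of both libraries, which allows Rpl10l at most 0.0317% of its pair in KO and 0.0346% in WT (Clopper-Pearson).

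In the other classes few members reached a 1.2-fold difference in either direction. In nephron progenitors the share ratio was 0.986, and of 82 members 1, Rps4l, was at least 1.2-fold lower in KO, against 15.1% of all genes, and 0 were higher, against 15.7%. In early nephron cells the ratio was 1.01, with 0 of 82 members lower, against 16.5%, and 0 higher, against 16.2%. In endothelium it was 1.02, with 0 of 82 lower, against 11.7%, and 0 higher, against 12%. In stroma it was 0.958, with 0 of 84 lower, against 13.7%, and 2 higher, Rps3a2 and Rps4l, against 14.5%. In mural cells it was 1.04, with 0 of 82 lower, against 19.1%, and 3 higher, Rpl6l, Rps10 and Rps4l, against 18.5%. In proximal tubule cells it was 1.06, with 1 of 85 lower, Rpl32l, against 23.9%, and 1 higher, Rps3a2, against 23.6%. Apart from Rps10, for which 20.8% of the UMIs of gene and copies lie in "-ps" rows, all of these are pseudogene-type rows.

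The share was higher in KO by the most in podocytes and immune cells, more than in proximal tubule (1.06), mural (1.04) and endothelial (1.02) cells. In podocytes it was 9.38% in KO and 8.42% in WT, a ratio of 1.11 (1.11 to 1.12). No member of 82 was at least 1.2-fold lower, against 16.6% of all genes, and 8 were at least 1.2-fold higher, against 26.1%. By interval bound the highest were Rps2 at 1.36 (1.32 to 1.41), Rpl19 at 1.26 and Rpl3 at 1.23. Podocytes with a Mki67 or Top2a UMI (15 in KO, 45 in WT) had a ratio of 1.42, and those without (108 in KO, 150 in WT) of 1.06. Podocyte markers moved with this: they summed to 10696 CPM in KO and 41676 CPM in WT in the cells with such a UMI, and to 29628 CPM in KO and 40021 CPM in WT in those without. Over the whole class all 9 were lower in KO and none was at 0, while all 9 endothelial markers were higher in KO, with a sum of 135 CPM in KO and 18.8 CPM in WT, and haemoglobin genes summed to 103 CPM in KO and 10.2 CPM in WT. The part of these in the result was not tested.

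In immune cells (125 in KO, 59 in WT) the share was 11.9% in KO and 10.7% in WT, a ratio of 1.11 (1.10 to 1.12). There 9 of 81 members were at least 1.2-fold higher, against 19.4% of all genes, led by Rpsa at 1.25, Rps27a at 1.23 and Rpl10 at 1.23, and 1 (Rps4l) was at least 1.2-fold lower, against 28.9%.

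Classes made of several clusters hid different values. Proximal tubule cells came from 3 clusters, with ratios of 1.28 (197 cells in KO, 68 in WT), 1.13 (77 in KO, 287 in WT) and 0.989 (133 in KO, 124 in WT). The cluster with most cells was the first of these in KO and the second in WT. The 8 stromal clusters ranged from 0.894 to 1.13.

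Within a class the ratio of a member depended on its coding length in most classes. The shortest genes were the lowest in classes whose total hardly differed: Rpl41 (75 bases) and Rps29 (168 bases) were among the 3 lowest in progenitors at 0.835 and 0.866, and Rpl38 (210 bases), Rpl39 (153 bases) and Rps21 (249 bases) were the 3 lowest in stroma at 0.837, 0.858 and 0.859. The median log2 ratio in stroma was -0.18 for the 10 members up to 300 bases, -0.10 for the 28 longer ones up to 450 bases, -0.03 for the next 19 up to 600 bases and -0.01 for the 23 above that. Other genes of these lengths with at least 500 UMIs had medians of -0.06, -0.04, -0.02 and 0.00 in stroma. Up to 300 bases their median was also below 0 in progenitors (-0.07), proximal tubule (-0.08), ureteric bud and collecting duct (-0.03), mural (-0.12) and endothelial (-0.11) cells. It was above 0 in loop of Henle (0.22), distal tubule (0.20), podocyte (0.10), immune (0.07) and early nephron (0.03) cells. Members up to 300 bases had medians of -0.33, -0.57, -0.01, -0.01 and -0.13 there. Over 80 members, Spearman's rho of ratio and coding length was 0.80 in ureteric bud and collecting duct cells, 0.79 in stroma, 0.69 in endothelium and 0.65 in progenitors, but 0.12 in loop of Henle cells. These are correlations across genes that share their libraries, given as a description. All members share 2 libraries made and counted separately, with different Cell Ranger versions, and the part of this was not tested.

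**Figure D5:**
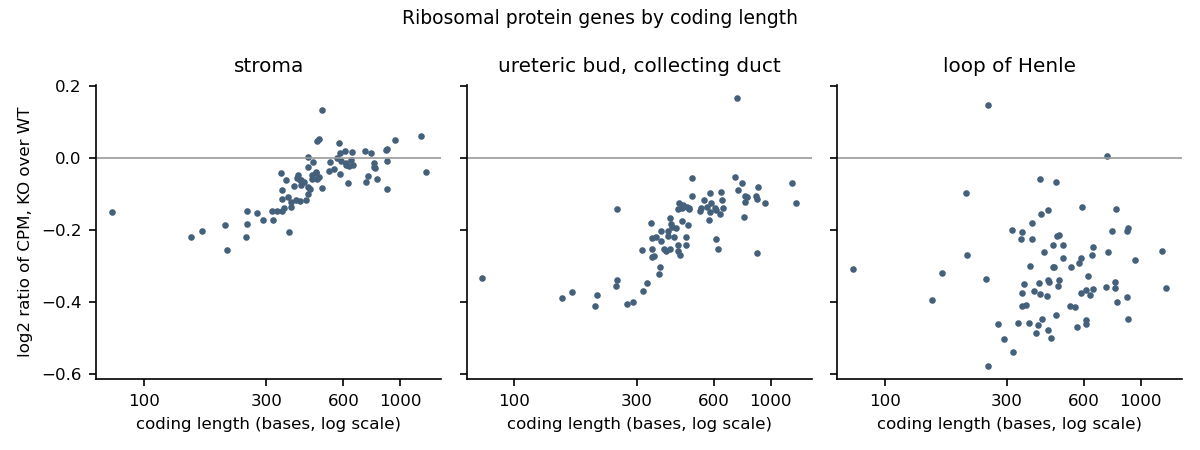
Log2 ratio of CPM, KO over WT (y axis), of each member with at least 500 UMIs against its coding length in bases (x axis, log scale) in stroma, ureteric bud and collecting duct, and loop of Henle cells. In the first 2 panels the short members lie lowest (rho 0.79 and 0.80), and in loop of Henle cells members of all lengths are lower (rho 0.12).

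Pooled over the 6 Six2-lineage classes the share ratio was 0.949, and over the 5 other classes compared it was 0.969. These pools are sums of UMIs, and the mix of classes in them differed between the libraries. Loop of Henle cells gave 11479690 of 50070519 nuclear-encoded Six2-lineage UMIs in KO and 8703039 of 56605300 in WT. Ureteric bud and collecting duct cells gave 4024136 of 56923368 in the other pool in KO and 8495702 of 40147896 in WT. The part of this mix in the pooled ratios and the member differences below was not tested. The members whose log2 ratio was highest in the Six2 lineage relative to the other classes were Rpl32l, Rps27l, Rps28 and Rps2, with differences of 0.45, 0.27, 0.23 and 0.11. The lowest were Rpl3l at -0.47, Rps3a3 and Rps6 at -0.12 each, and Rps12 at -0.12. Rpl32l, Rpl3l and Rps3a3 rest on few UMIs (for Rpl3l 30 in KO and 21 in WT of the Six2 lineage).

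Members also differed in how evenly the classes used them. The coefficient of variation of CPM over the 11 classes had a median of 0.242 in KO and 0.222 in WT over 81 members with a mean of at least 20 CPM. It was highest in both libraries for Rps26, a small subunit protein near the mRNA exit channel, at 0.425 in KO and 0.397 in WT. Rps26 was highest in progenitors, at 1849 CPM in KO and 1911 CPM in WT, next in stroma, at 1583 CPM in KO and 1684 CPM in WT, and lowest in KO loop of Henle cells at 528 CPM and WT distal tubule cells at 669 CPM. Rps4l, Rpl12 and Rpl7 were among the 6 most variable in both libraries, Rpl12 with 2905 CPM in KO and 2838 CPM in WT progenitors. Rpl7l1, Rpl19 and Rpl35a were among the 6 most even in both libraries, Rpl7l1 with a coefficient of 0.160 in KO and 0.147 in WT. Rpl10, the most even member in WT, was not among the 6 most even in KO.

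Other genes of the translation machinery differed from the ribosomal protein genes in loop of Henle cells. Of 24 further TOP mRNAs and ribosome-associated genes, 8 were at least 1.2-fold lower in KO, a share near the 30% of all genes, and 0 were higher, against 24.5% of all genes. Their median log2 ratio was -0.23, against -0.03 for all genes. The lowest were Gas5, a TOP-containing snoRNA host, at 0.575 (0.549 to 0.602), Fau, the precursor of the small subunit protein eS30, at 0.763, and Nap1l1 at 0.726. Of 31 translation initiation factors 0 were at least 1.2-fold lower, against 30% of all genes, and 5 higher, against 24.5% (median 0.10), with Eif4ebp1, an inhibitor of eIF4E and an mTORC1 substrate, at 1.66 (1.51 to 1.83), Eif4ebp2 at 1.43 and Eif1 at 1.25. Of 38 ribosome biogenesis genes 6 were lower and 6 higher, both below the shares of all genes (median -0.03), among them the pseudouridine synthase Dkc1 at 0.681 and fibrillarin (Fbl) at 0.757 below, and Nip7 at 1.5 above. Of 77 mitochondrial ribosomal protein genes, which build the separate ribosome of mitochondria, 0 were lower and 38 higher, against the same 30% and 24.5% of all genes (median 0.25), led by Mrps23 at 1.59 (1.45 to 1.74).

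These lists moved with the Mki67 or Top2a split as well. In loop of Henle cells without such a UMI the median log2 ratio was 0.05 for the further TOP genes, 0.27 for initiation factors, 0.31 for ribosome biogenesis genes and 0.43 for mitochondrial ribosomal protein genes, against -0.02 for all genes and 0.01 for the ribosomal protein genes. In those with such a UMI the medians were -0.32, 0.01, -0.13 and 0.18, against 0.00 for all genes and -0.44 for the ribosomal protein genes. Of 12 p53 targets tested, a list that does not hold Rps27l, 9 were at least 1.2-fold higher in KO loop of Henle cells, against 24.5% of all genes. Phlda3 was at least 1.2-fold lower, at 0.806 with an interval that includes 1 (0.482 to 1.35), and Mdm2, the ubiquitin ligase of p53, was at 0.849 (0.753 to 0.958). The highest were Ccng1 at 1.60, Aen at 1.73 and Cdkn1a at 1.47. The list's median log2 ratio was 0.48 in cells with and 0.45 in cells without a Mki67 or Top2a UMI, over the 11 targets with enough UMIs in each set of cells. In proximal tubule cells 8 of 12 targets were at least 1.2-fold higher, against 23.6% of all genes, with a median of 0.46, against 0.45 in loop of Henle cells. The Rps27l share there was 27.5% in KO and 26.8% in WT. In distal tubule cells 8 of 10 targets were at least 1.2-fold higher, against 27.3% of all genes, with a median of 0.64. In ureteric bud and collecting duct cells, outside the Six2 lineage, 5 of 12 were, against 2102 of 12393 genes tested, and 0 of the 12 lay below a ratio of 1. In nephron progenitors 1 of 13 was at least 1.2-fold higher, against 15.7% of all genes, and 4 were lower, against 15.1%. A relation of these targets to the Rps27l share was not tested.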

How the data were processed

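The deposited matrices give raw UMI counts per gene and barcode, 1 library per genotype. The file headers record Cell Ranger 7.1.0 in KO and 7.0.0 in WT. Reads were handled with bcl2fastq 2.20.0 and STAR 2.7.2a and the build was GRCm38 (mm10), per the submitters' processing notes. For annotation and intron handling, the entry is "not given in the sources used here". The libraries hold 5991 KO barcodes with 149679281 UMIs and 5572 WT barcodes with 147390790 UMIs.

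Barcodes with at least 1000 UMIs, 500 genes and at most 20% mitochondrial UMIs were kept. Scrublet (scanpy 1.11.5) marked 39 KO and 1 WT barcodes by its own threshold, which was judged to have failed, so the top-scoring 242 KO and 187 WT barcodes were dropped (0.8% per 1000 barcodes). Leiden clusters (2000 variable genes without ribosomal protein genes, 40 components, 20 neighbours, resolution 1, igraph 0.11.9, no integration) were named from marker lists. UMIs were summed per class and library and scaled to CPM of nuclear-encoded UMIs. Ratios carry exact conditional 95% intervals, and shares carry Clopper-Pearson ones. For log2 ratios 0.5 UMI was added to each sum. A gene entered with at least 50 UMIs over both libraries and was counted from a 1.2-fold difference. The interval calculation was checked on simulated independent counts, which hold no spread between cells, so that spread was not checked. Coding lengths come from GENCODE M21.

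Members, lists and markers were chosen with earlier results of these data known. Named were a set of always eligible members and paralogs, per class the 3 members of highest and 3 of lowest ratio (8 each in loop of Henle cells) by the interval bound nearest to 1, the 6 most and least variable over classes, the 4 with the largest difference each way between Six2-lineage and other classes, and up to 3 genes each way per list. Members in counts of 7 or fewer, Phlda3, Mki67, Top2a, Umod and other marker genes, and Malat1 were named after their values were seen. Alternatives varied filters, class definition, scaling (edgeR 4.0.16 TMM, DESeq2 1.42.0 size factors, R 4.3.3), depth and member choice. Intercalated, erythroid and unnamed cells were left out of the comparisons.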

Additional observations from a re-analysis of the deposited data

Results flagged for a closer look

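The direction of the ribosomal protein difference was not the same in all classes, and this difference between classes was not tested, since each class has 1 library per genotype. The share ratio of KO over WT was 0.798 in loop of Henle cells, 0.738 in distal tubule cells and 0.872 in ureteric bud and collecting duct cells, and 1.11 in both podocytes and immune cells. Cells that no marker list named were in no comparison, and in them ribosomal protein genes took 13.5% of nuclear-encoded UMIs in KO (664 cells) and 14.5% in WT (607 cells).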

How the results depend on the processing

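The loop of Henle share ratio (0.798) stayed below 1 under 21 of 22 alternatives. It was 0.806 and 0.837 with at most 10% and 30% mitochondrial UMIs, 0.769 with likely doublets kept, 0.802 with classes from each cell's own marker score and 0.696 with each library clustered alone. It was 0.794 on CPM of all UMIs, 0.779 without ribosomal protein genes in the denominator, 0.772 without nuclear-retained RNAs as well, 0.815 with TMM and 0.816 with median-of-ratios scaling. It was 0.816 as a mean over cells, 0.838 after thinning to 3000 UMIs (104 KO and 165 WT cells were shallower), 0.879 in cells of 10000 to 40000 UMIs, 0.88 up to 60000 UMIs and 0.801 over members longer than 600 coding bases. Without cells holding a Mki67 or Top2a UMI it turned to 1.02 (large subunit 1.02, small subunit 1.01), with a member median log2 ratio of 0.01. The cause was not tested. The count of members at least 1.2-fold lower (55) was 21 in cells of 10000 to 40000 UMIs, 20 up to 60000 UMIs, 2 without those cells, and 15 of 23 members longer than 600 bases, where fewer genes were tested.

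The distal tubule ratio (0.738) stayed below 1 under all 21 alternatives that gave a value. It was 0.847 and 0.756 with the 2 mitochondrial limits, 0.847 with at least 3000 UMIs and 1000 genes, 0.853 with doublets kept, 0.776 at resolution 0.5 and 0.806 with each cell's own score. It was 0.724 on all UMIs, 0.713 without ribosomal protein genes, 0.716 without nuclear-retained RNAs as well and 0.727 with TMM or median-of-ratios scaling. It was 0.841 as a mean over cells, 0.799 after thinning, 0.571 at 10000 to 40000 UMIs, 0.734 up to 60000 UMIs, 0.758 over longer members and 0.982 without a Mki67 or Top2a UMI, with a member median of 0.02. Its count (70) was 35 at 10% mitochondrial UMIs, 36 with the stricter depth filter, 32 with doublets kept, 31 as a mean over cells, 46 after thinning, 7 without a Mki67 or Top2a UMI and 18 of 23 longer members. Clustered alone, the KO library gave no distal tubule class.

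The ureteric bud and collecting duct count (18) was 10 at 30% mitochondrial UMIs, 28 without ribosomal protein genes and nuclear-retained RNAs in the denominator, 28 with TMM, 28 with median-of-ratios scaling, 9 as a mean over cells, 2 at 10000 to 40000 UMIs, 2 up to 60000 UMIs and 1 of the 23 longer members; its share ratio ran from 0.852 to 0.967. The podocyte ratio (1.11) was 1.01 up to 60000 UMIs and 1.48 with each library clustered alone. The immune ratio was 1.01 with doublets kept. The early nephron ratio (1.01) was 0.907 with each library clustered alone, where 9 members were at least 1.2-fold lower in KO. Without a Mki67 or Top2a UMI, up to 60000 UMIs, clusters weighted equally, without 1 rRNA-like row (CT010467.1) and longer members were alternatives chosen after seeing the data. No paired analysis was possible because each genotype has 1 library, so no library could be left out either. The limits here are the single library per genotype, the few distal tubule cells, the spread between cells and the dependence on which cells a class holds. Counting error, the only error in the intervals, is small for all but the rarest members.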

Other observations

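Erythroid cells, which were too few in KO for a comparison, had a ribosomal protein share of 16.7% in KO (48 cells, median 3027 UMIs) and 20.4% in WT (154 cells, median 2384 UMIs). Intercalated cells of the collecting duct had 9.55% in KO (14 cells) and 11.1% in WT (41 cells). The 319 rows marked "-ps" held 75077 UMIs in KO and 72004 in WT over all barcodes, equal to 0.423% of member UMIs in KO and 0.398% in WT. Most of this lies at a few members: 20.8% of the UMIs of Rps10 and its copies and 5.25% of those of Rpl10a and its copies lay in such rows, so the levels of these 2 are uncertain. 30 members hold 58 annotated small nucleolar RNAs within their genes, which 3′ mRNA counting does not measure.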
